A study of Mus musculus with 12 samples.

Results

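The kidney activates vitamin D, recovers its carrier protein from the filtrate and makes the hormone co-receptor klotho, and 9 genes of these functions were followed here among the 23183 symbols quantified. They were Gc, Cyp27b1, Cyp24a1, Vdr, Kl, Lrp2, Cubn, Amn and Dab2. They were chosen by symbol and selected on the FPKM of Gc and Cyp27b1, since Gc and Cyp27b1 were higher in contralateral knockout kidneys than in contralateral wild-type kidneys. That choice used no numeric threshold. All 9 symbols were present in each of the 12 libraries, and all 9 passed the filter on low values that left 13243 genes for testing.

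RNA was sequenced from kidney cortex of WT and Acot12-/- mice 7 days after unilateral ureteral obstruction (UUO), a surgical block of 1 ureter. Each genotype gave 3 libraries of the obstructed kidney and 3 of the contralateral (CL) kidney, so the groups were WT CL, WT UUO, Acot12-/- CL and Acot12-/- UUO. The mice were males of strain C57BL/6 in the labels and C57BL/6N in the study's methods, aged 6 to 7 weeks at surgery, and the knockout was global, through a germline mutant allele made with an RNA-guided nuclease, so no cell type was targeted. The CL kidney belonged to an operated animal and was the only reference kidney.

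Vitamin D travels in blood bound to the vitamin D binding protein, which Gc encodes. The complex is filtered and then taken up by proximal tubule cells through megalin (Lrp2) and cubilin (Cubn), with amnionless (Amn) carrying cubilin to the membrane and the adaptor DAB2 linking the receptors to the endocytic coat. Inside these cells CYP27B1 makes the active hormone calcitriol and CYP24A1 inactivates it, and the receptor encoded by Vdr binds it in the nucleus. Klotho, the product of Kl, is made mainly in the distal tubule and serves as co-receptor for FGF23, a bone hormone that lowers CYP27B1 and raises CYP24A1.

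The obstructed kidney had less mRNA of the uptake receptors, of Vdr and of Kl in both genotypes. Of the 7 genes that the choice did not name, Vdr, Lrp2, Cubn, Dab2 and Kl fell in WT and in Acot12-/- kidneys (adjusted p below the threshold of 0.05 in limma, a linear model fitted across all genes). Cyp24a1 rose in WT kidneys, and Amn passed the threshold in neither genotype. In obstructed kidneys, 0 of 9 genes passed the test between Acot12-/- and WT. Gc and Cyp27b1 were low in WT CL kidneys and higher in each of the other groups.

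Values are FPKM, fragments per unit of transcript length and of sequencing depth, which allow levels of different genes to be compared. Log2 differences were taken on log2(FPKM + 1), which understates changes of low genes. The Acot12 mRNA itself averaged 68.2 ± 13.6 FPKM in WT CL and 8.32 ± 1.32 in Acot12-/- CL kidneys, with 16.0 ± 5.67 in WT UUO and 2.98 ± 1.06 in knockout UUO kidneys (mean ± SD, n = 3). Every knockout library was below every WT library of the same side. The first principal component of all tested genes accounted for 74.2% of the variance and separated the obstructed from the CL libraries, and the second, with 9.46%, set Acot12-/- CL replicate 2 apart. The depth by which the FPKM were divided, estimated from the values, was 12440000 to 16400000 in CL libraries and 18620000 to 23140000 in UUO libraries. It may hold a scaling factor between libraries, so it need not be the number of fragments sequenced.

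**Figure D1:**
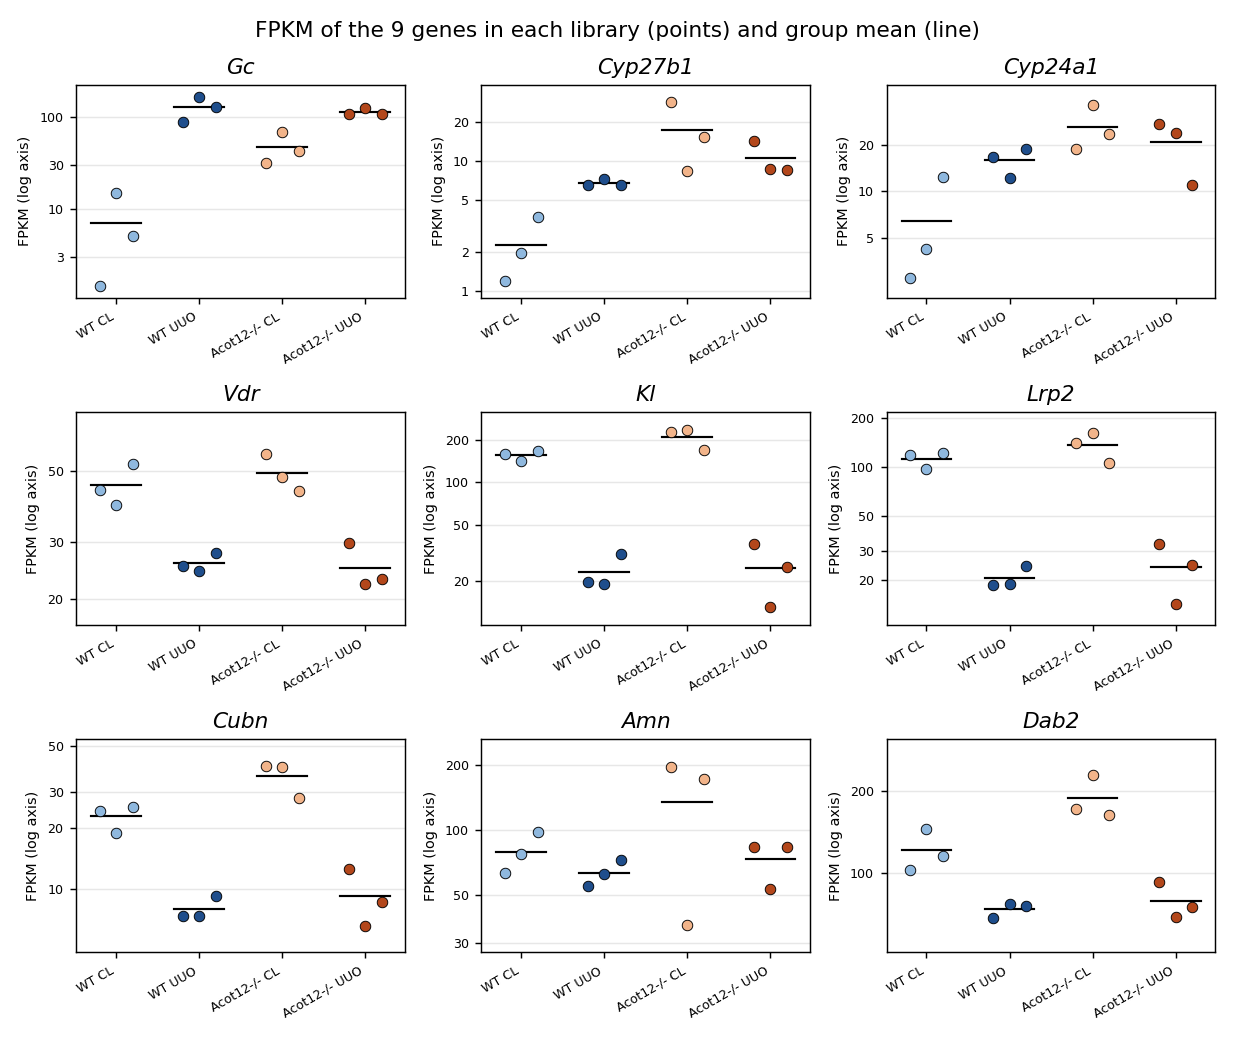
FPKM of the 9 genes (log axis) in each of the 12 libraries, 3 points per group in the order of replicates 1 to 3, with the group mean as a line. Kl and Lrp2 sit lower in both UUO groups without overlap, while Gc and Cyp27b1 have their lowest points in WT CL kidneys.

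Gc, a secreted plasma protein best known as a liver product, had the widest range. It read 1.46, 15.0 and 5.09 FPKM in WT CL replicates 1 to 3, and 89.3, 166 and 128 in WT UUO. Acot12-/- CL kidneys had 31.6, 69.9 and 42.8 FPKM, and Acot12-/- UUO kidneys had 108, 126 and 110. All 3 Acot12-/- CL libraries were above all 3 WT CL libraries and below all 6 UUO libraries, while the UUO groups overlapped. The WT CL libraries differed among themselves by 10.2 times, and the Acot12-/- UUO libraries by 1.16 times.

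The group means of Gc were 7.17 ± 6.98 FPKM in WT CL, 48.1 ± 19.7 in Acot12-/- CL, 115 ± 9.66 in Acot12-/- UUO and 128 ± 38.6 in WT UUO kidneys (SD, n = 3), where the last pair of neighbours overlapped. On the log2 scale Acot12-/- CL exceeded WT CL by 2.91, a value that the choice of Gc used and that is given without a test. WT UUO exceeded WT CL by 4.33 and Acot12-/- UUO exceeded Acot12-/- CL by 1.31. These share the CL arms with the choice and also carry no test. Across obstructed kidneys, a comparison the choice did not use, Gc differed between genotypes by -0.12 ± 0.52 (SE), with a 95% interval of -1.26 to 1.02 and limma adjusted p = 0.9999.

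Gc mRNA in cortex was set beside genes of the hepatocyte. Of 16 hepatocyte markers, 5 stayed under 1 FPKM in every library and 2 were listed at 0 throughout. Among those 5, Ahsg, Cps1, Mup3 and Serpina3k reached at most 0.054 FPKM. Others of the list were higher, such as Apoc3 at 72.0, Apoa2 at 12.9 and Serpina1b at 10.3 FPKM on average in WT CL kidneys. Alb, which encodes albumin, averaged 1.74 FPKM in WT CL and 0.158 in WT UUO kidneys and fell by 1.22 on the log2 scale, while Gc was higher in WT UUO. The summed level of the 16 markers ranged from 308 to 442 FPKM in WT CL, 339 to 665 in Acot12-/- CL, 127 to 239 in WT UUO and 147 to 438 in Acot12-/- UUO kidneys. Of the 11 markers tested, 2 rose and 6 fell in WT, and 2 rose and 3 fell in Acot12-/- kidneys. Those that rose in WT, the direction in which Gc differed, were Serpina1b by 1.36 (limma adjusted p = 0.0015) and the fibrinogen chain Fgb by 2.40 (adjusted p = 0.0178). The Fgb call was lost without WT CL replicate 1 (adjusted p = 0.067) or 3 (0.0711) or WT UUO replicate 2 (0.0728). Fgb also rose by 1.90 in Acot12-/- kidneys (adjusted p = 0.0441), a call lost without CL replicate 1 (0.19) or 2 (0.0689) or UUO replicate 2 (0.119) or 3 (0.142). Fga, another fibrinogen chain, named after its values were seen, averaged 11.2 FPKM in WT CL and 32.9 in WT UUO kidneys (adjusted p = 0.0814), and 37.1 in Acot12-/- CL kidneys, where its libraries read 9.28, 16.2 and 86.0. Between the CL groups, described without a test, Alb averaged 2.76 FPKM in Acot12-/- against 1.74 in WT, and Fgb 4.40 against 1.45. That is the direction of Gc. Serpina1b (9.06 against 10.3) and Apoc3 of the same list (55.0 against 72.0) went the other way. The part of these markers in the Gc values was not tested. Transthyretin (Ttr), which the choroid plexus also makes, averaged 202 FPKM in WT CL kidneys, the highest group mean of the list in that group.

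Cyp27b1, the activating hydroxylase, was the lowest of the 9 genes in WT CL kidneys. Its values were 1.19, 1.96 and 3.69 FPKM in WT CL and 6.52, 7.25 and 6.51 in WT UUO. In Acot12-/- CL kidneys they were 28.5, 8.37 and 15.4, and in Acot12-/- UUO kidneys 14.3, 8.67 and 8.50. Every Acot12-/- library was above every WT library of the same side, and every WT UUO library was above every WT CL library. The Acot12-/- CL and UUO libraries overlapped, and the Acot12-/- CL libraries spanned 3.41 times.

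The mean level of Cyp27b1 ran in the order WT CL (2.28 ± 1.28 FPKM), WT UUO (6.76 ± 0.43), Acot12-/- UUO (10.5 ± 3.29) and Acot12-/- CL (17.4 ± 10.2; SD, n = 3), where the last pair of neighbours overlapped. The log2 difference between Acot12-/- CL and WT CL was 2.41, from the contrast of the choice and untested. UUO against CL gave 1.31 in WT and -0.57 in Acot12-/- kidneys, also untested. Between the genotypes in UUO, Cyp27b1 differed by 0.53 ± 0.37 (SE; 95% interval -0.28 to 1.34). The unadjusted p was 0.179 and the limma adjusted p 0.9999. The 3 libraries of each genotype did not overlap, as was the case upward for 5.5% of all tested genes in this comparison.

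These levels rest on approximate fragment counts of 38 to 120 for Cyp27b1 in WT CL libraries and 285 to 1005 in Acot12-/- CL libraries. For Gc the corresponding ranges were 35 to 335 and 843 to 1802. These counts were computed from the same FPKM on which both genes were chosen. They show how few fragments the WT CL values rest on and add nothing on the difference between genotypes.

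The promoters of these genes are shown because Gc and Cyp27b1 shared low levels in WT CL kidneys, while Lrp2 and Kl had the largest falls on obstruction. Sequences are the reference strand of each gene, 5′ to 3′, from RefSeq on GRCm38.p6, ending before the gene starts in RefSeq and GENCODE. Windows of 300 bases, from 250 before to 50 after the start, were available for 8 of the 9 genes. Cyp24a1 had none, so its promoter was not searched. Capitals mark GTTAATNATTAA, a form of the site of the liver and kidney factor HNF1, in Gc (chr5:89457899-89458148, minus strand), and the CCAAT box on the opposite strand in Cyp27b1 (chr10:127047996-127048245, plus strand). In Lrp2 (chr2:69586066-69586279, minus strand) and Kl (chr5:150952357-150952606, plus strand) they mark the GC box GGGCGG on either strand.
Gc: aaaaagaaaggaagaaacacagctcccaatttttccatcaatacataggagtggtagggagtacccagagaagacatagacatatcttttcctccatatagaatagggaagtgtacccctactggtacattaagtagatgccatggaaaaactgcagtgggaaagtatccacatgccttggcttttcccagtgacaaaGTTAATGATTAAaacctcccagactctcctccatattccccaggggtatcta
Cyp27b1: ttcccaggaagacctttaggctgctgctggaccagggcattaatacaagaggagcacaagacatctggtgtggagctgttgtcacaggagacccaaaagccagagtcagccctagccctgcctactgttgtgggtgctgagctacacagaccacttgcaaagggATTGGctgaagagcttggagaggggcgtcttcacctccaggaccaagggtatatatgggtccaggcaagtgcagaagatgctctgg
Lrp2: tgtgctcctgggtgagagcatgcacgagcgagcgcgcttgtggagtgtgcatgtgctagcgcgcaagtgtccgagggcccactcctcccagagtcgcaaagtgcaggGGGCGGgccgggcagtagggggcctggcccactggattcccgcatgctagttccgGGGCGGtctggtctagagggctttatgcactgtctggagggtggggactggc
Kl: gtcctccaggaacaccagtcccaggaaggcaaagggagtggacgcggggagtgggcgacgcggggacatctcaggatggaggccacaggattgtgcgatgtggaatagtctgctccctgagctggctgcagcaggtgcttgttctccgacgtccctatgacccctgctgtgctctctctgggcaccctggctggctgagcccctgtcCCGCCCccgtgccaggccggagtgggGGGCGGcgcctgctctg

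The HNF1 letters lay at 52 to 41 bases before the Gc start. They occurred, on either strand, in 0.0609% of the 32851 mouse promoter windows and in no other window of the 8 genes searched. A CCAAT box was present in 37.4% and a GC box in 35.7% of all windows. They were present in 3 and 4 of the 9 windows of the 8 genes, so neither is read as particular to the genes shown. Gc also held a CCAAT box, not marked, at 225 to 221 bases before its start. The direct repeat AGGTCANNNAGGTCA, a textbook element of the vitamin D receptor, matched none of the windows of the 8 genes and 0.00609% of all. Nothing is known from this about Cyp24a1, which had no window. Its AGGTCA part, which lies within it, occurred in 16.3% of all windows. The Gc window held 0 CG dinucleotides, a number that only 5.43% of windows do not exceed, and Cyp27b1 held 2. Kl and Lrp2 held 19 and 20, against a median of 7. These matches describe letters in the reference and say nothing about binding in these kidneys.

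Cyp24a1, the inactivating hydroxylase, was lowest in WT CL kidneys, like Gc and Cyp27b1. It read 2.73, 4.21 and 12.4 FPKM in WT CL and 16.8, 12.3 and 18.9 in WT UUO kidneys. The knockout had 19.0, 36.5 and 23.5 in CL and 27.6, 24.0 and 11.0 in UUO kidneys. All Acot12-/- CL libraries were above all WT CL libraries, but WT UUO and WT CL overlapped because WT CL replicate 3 was high. Cyp24a1 shares 83 exon bases with Pfdn4 on the opposite strand, and whether the counting used strand is not given in the sources used here. Pfdn4 averaged 44.3 FPKM in WT CL and 26.5 in WT UUO kidneys, the opposite order to Cyp24a1. In Acot12-/- kidneys Pfdn4 averaged 40.8 FPKM in CL and 26.3 in UUO, the same order as the Cyp24a1 means of 26.3 and 20.9. The part of Pfdn4 reads in the Cyp24a1 values was not tested.

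In WT kidneys Cyp24a1 rose by 1.39 ± 0.44 on the log2 scale (SE; limma adjusted p = 0.0218). It was the only 1 of the 7 testable genes called higher, where 23.6% of all 13243 genes were, and 0 of 7 were called higher in Acot12-/- kidneys, where 26.6% were. The call was lost without any of 4 of the 6 WT libraries, with adjusted p = 0.0996 without WT CL replicate 1, 0.0697 without WT CL replicate 2, 0.0606 without WT UUO replicate 1 and 0.0682 without WT UUO replicate 3. In Acot12-/- kidneys the difference was -0.36 (limma adjusted p = 0.513). The difference between the genotypes' responses was -1.76, with a 95% interval of -3.12 to -0.39 and an unadjusted p of 0.0159. Its limma adjusted p of 0.304 did not pass. This value is the genotype difference in UUO, 0.29, less that in CL, 2.05. The CL difference belongs to the contrast of the choice, so nothing is read from the interval or the p. Of the 7 genes, 0 were called in this interaction by limma, where 0.106% of all genes were, and 1 had an unadjusted p under 0.05, as did 10.5% of all genes.

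The ratio of Cyp27b1 to Cyp24a1 FPKM was 0.298 to 0.464 in WT CL, 0.345 to 0.590 in WT UUO, 0.361 to 0.769 in Acot12-/- UUO and 0.229 to 1.5 in Acot12-/- CL kidneys. The ranges overlapped in every pair of groups, and Acot12-/- CL replicates 1 and 2 had the highest and the lowest of the 12 ratios.

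Vdr, the nuclear receptor for calcitriol, was lower in every obstructed kidney. WT CL libraries had 43.8, 39.3 and 52.3 FPKM and WT UUO libraries 25.3, 24.4 and 27.8. Acot12-/- CL libraries had 56.3, 47.8 and 43.3 and Acot12-/- UUO libraries 29.8, 22.3 and 23.2. CL and UUO did not overlap in either genotype, while the genotypes overlapped on both sides. Vdr fell by 0.77 on the log2 scale in WT (SE 0.16, limma adjusted p = 0.00238) and by 0.95 in Acot12-/- kidneys (adjusted p = 0.000458). Its interaction was -0.17 (95% interval -0.68 to 0.33).

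The Vdr call was lost in both genotypes when all libraries were scaled to the same total FPKM, a setting that lifted the median of all genes by 0.619 (log2) in WT and 0.457 in Acot12-/- UUO against CL. Vdr then differed by -0.06 and -0.41, which is 0.68 and 0.87 below those shifts.

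Kl fell more than any other of the 9 genes in both genotypes. It read 158, 142 and 168 FPKM in WT CL and 19.7, 18.8 and 31.2 in WT UUO. The Acot12-/- libraries read 227, 234 and 169 in CL and 36.6, 13.0 and 24.9 in UUO. The highest UUO library was far below the lowest CL library, and Kl moved from the most abundant of the 9 genes in both CL groups to the fifth in both UUO groups. The fall was 2.72 on the log2 scale in WT (SE 0.31, limma adjusted p = 4.21e-05) and 3.13 in Acot12-/- kidneys (adjusted p = 9.49e-06). On FPKM the WT CL mean was 6.70 times the WT UUO mean, and the Acot12-/- CL mean 8.45 times the Acot12-/- UUO mean. All 3 Acot12-/- CL libraries exceeded all 3 WT CL libraries, although Acot12-/- CL replicate 3 did so by less than 1 FPKM.

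Megalin, the large endocytic receptor encoded by Lrp2, fell nearly as much as Kl. It read 118, 97.4 and 123 FPKM in WT CL and 18.5, 18.8 and 24.3 in WT UUO. In Acot12-/- kidneys it read 141, 162 and 106 in CL and 33.1, 14.1 and 24.8 in UUO. No UUO library came near a CL library, and the genotypes overlapped on both sides. Lrp2 fell by 2.40 on the log2 scale in WT (SE 0.27, limma adjusted p = 3.87e-05) and by 2.51 in Acot12-/- kidneys (adjusted p = 1.53e-05). The interaction was -0.11 (95% interval -0.94 to 0.72).

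Cubilin, the partner receptor without a membrane anchor of its own, fell less than megalin. Cubn read 24.1, 18.8 and 25.1 FPKM in WT CL and 7.37, 7.39 and 9.23 in WT UUO. Knockout kidneys had 40.1, 39.7 and 27.8 on the CL side and 12.5, 6.57 and 8.63 on the UUO side. The Acot12-/- CL libraries were all above the WT CL libraries, and both UUO groups were below both CL groups. Cubn fell by 1.39 on the log2 scale in WT (SE 0.22, limma adjusted p = 0.000336) and by 1.87 in Acot12-/- kidneys (adjusted p = 2.89e-05).

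The endocytic adaptor Dab2 fell least among the called genes in WT kidneys on the log2 scale. It read 103, 145 and 115 FPKM in WT CL and 68.4, 77.0 and 75.4 in WT UUO. Acot12-/- CL libraries had 172, 231 and 163, and the obstructed ones 92.7, 68.8 and 75.1. CL and UUO did not overlap in either genotype, and the Acot12-/- CL libraries were the highest of all 12. Dab2 fell by 0.70 in WT (SE 0.19, limma adjusted p = 0.00914), but the difference was 0.03 under equal total FPKM, 0.59 below the shift of all genes. In Acot12-/- kidneys it fell by 1.24 (adjusted p = 0.000167), and under equal totals by 0.70 (adjusted p = 0.00895).

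Amn, the small membrane partner of cubilin, did not pass the test in either genotype. It read 63.1, 77.0 and 97.6 FPKM in WT CL and 54.8, 62.7 and 72.2 in WT UUO. Acot12-/- CL libraries read 194, 36.4 and 172, with replicate 2 the lowest of all 12, and Acot12-/- UUO libraries read 82.9, 53.4 and 83.2. The differences were -0.31 in WT (95% interval -1.37 to 0.76, limma adjusted p = 0.629) and -0.57 in Acot12-/- kidneys (adjusted p = 0.348). Without Acot12-/- CL replicate 2, the latter was -1.34 with adjusted p = 0.000483. In WT the sign turned to 0.42 under equal total FPKM.

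With these genes together, 5 of the 7 testable genes were called lower in WT kidneys, against 23.9% of all genes tested, and 5 of 7 in Acot12-/- kidneys, against 27.2%. Under equal total FPKM, 3 of 7 (Lrp2, Cubn and Kl) were called lower in WT, where 7.7% of all genes were called lower and 56.8% higher. In Acot12-/- kidneys 4 of 7 were (Lrp2, Cubn, Dab2 and Kl), where 11.5% were lower and 46.7% higher. The median difference of the 7 was -0.77 in WT and -1.24 in Acot12-/- kidneys, beside 0.01 and -0.01 over all genes. All UUO libraries lay below all CL libraries for 5 of the 9 genes in either genotype, as for 35.8% of all genes in WT and 27.6% in Acot12-/- kidneys. They lay above them for Gc and Cyp27b1 in WT, as for 35.5% of genes, and for Gc in Acot12-/- kidneys, as for 27.8%, shares from which nothing is read for these 2. Falls held in each of the 3 same-numbered kidney pairs of both genotypes for Vdr, Lrp2, Cubn, Dab2 and Kl. Acot12-/- replicate 2 had the largest fall of its genotype in each of these genes, with -4.07 on the log2 scale for Kl, where replicates 1 and 3 had -2.60 and -2.71.

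**Figure D2:**
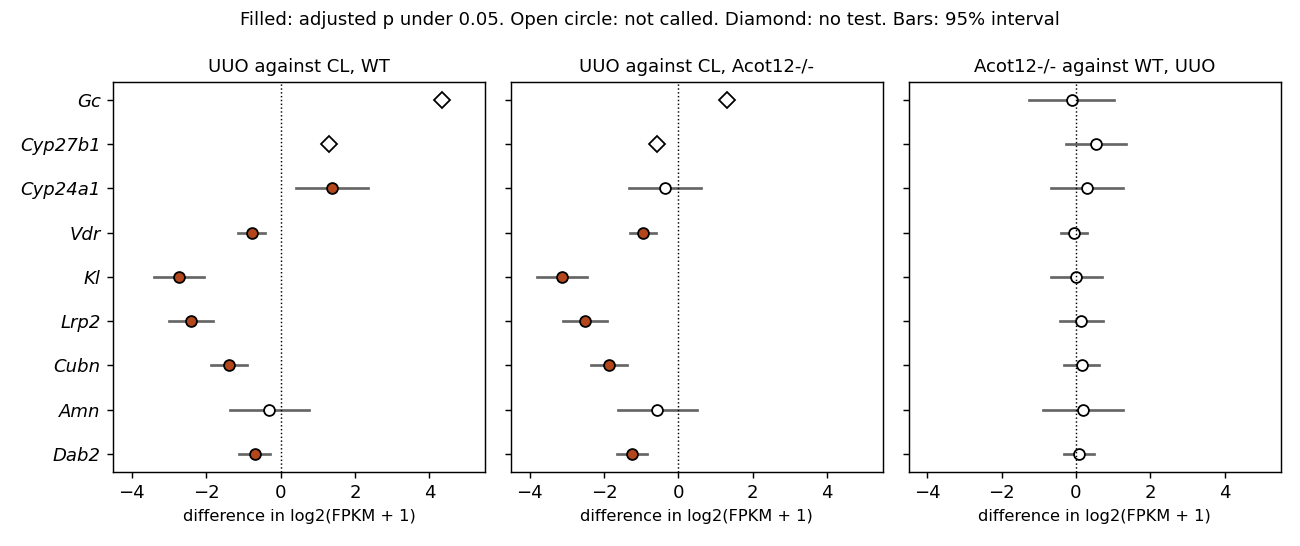
Differences in log2(FPKM + 1) for UUO against CL in WT, UUO against CL in Acot12-/-, and Acot12-/- against WT in UUO kidneys, with 95% intervals from limma (n = 3 libraries a group). Filled points passed adjusted p of 0.05, open circles did not, and diamonds mark Gc and Cyp27b1, which were not tested where the CL groups enter. Kl and Lrp2 lie farthest to the left in both genotypes and every interval of the right panel spans 0.

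The uptake genes did not fall in proportion. Within a library, Lrp2 over Cubn was 4.88 to 5.19 in WT CL and 2.51 to 2.64 in WT UUO kidneys, and in the knockout 3.51 to 4.08 in CL and 2.14 to 2.87 in UUO kidneys. The ratio was thus lower in every UUO library than in every CL library, and lower in every Acot12-/- CL than in every WT CL library. Dab2 over Lrp2 went from 0.872 to 1.49 in WT CL to 3.10 to 4.09 in WT UUO kidneys, and from 1.22 to 1.54 to 2.80 to 4.89 in Acot12-/- kidneys. Amn over Cubn was 2.62 to 4.10 in WT CL and 7.43 to 8.48 in WT UUO kidneys. In the knockout it was 0.916 to 6.17 in CL and 6.64 to 9.64 in UUO kidneys, with the low end in Acot12-/- CL replicate 2.

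**Figure D3:**
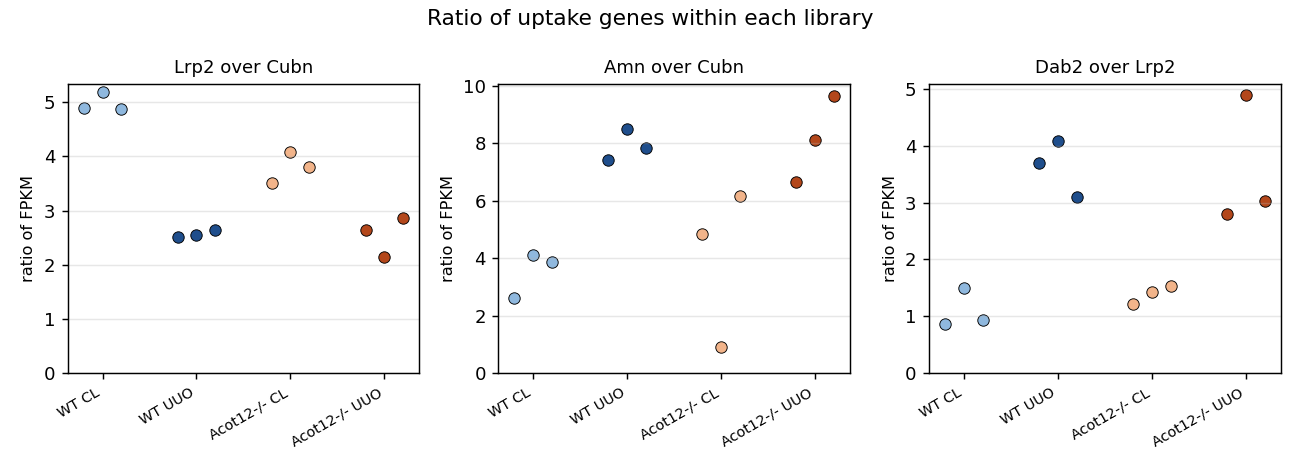
Ratios of FPKM within each library for Lrp2 over Cubn, Amn over Cubn and Dab2 over Lrp2 (axes start at 0, points are replicates 1 to 3 of each group). Lrp2 over Cubn is lower in all 6 UUO libraries than in all 6 CL libraries, and the other ratios are higher there.

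Kl over Lrp2 was steadier, at 1.34 to 1.45 in WT CL, 1.44 to 1.61 in Acot12-/- CL, 1.00 to 1.28 in WT UUO and 0.925 to 1.10 in Acot12-/- UUO kidneys. This ratio too was lower in every UUO than in every CL library. The ratios are free of the scaling between libraries, and they describe bulk tissue, in which fewer cells of a type and less RNA per cell cannot be told apart.

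Markers of cell types were counted in the same comparisons, and the lists went different ways. Of 20 proximal tubule markers, 19 fell in WT and 20 in Acot12-/- kidneys, with median log2 differences of -1.98 and -2.57, and of 12 distal tubule markers 10 and 11 fell. Under equal totals 15 and 20 proximal and 6 and 8 distal markers fell. The summed proximal markers were 7820 to 10200 FPKM in WT CL and 1450 to 2960 in WT UUO, and in the knockout 10200 to 15100 in CL and 1120 to 3360 in UUO kidneys. Of 8 markers of the injured tubule, 7 rose in WT and 8 in Acot12-/- kidneys, as did 11 and 12 of 12 macrophage markers and 7 and 10 of 10 fibroblast markers. Of 10 endothelial markers, 1 rose and 4 fell in WT, and 8 rose and 0 fell in Acot12-/- kidneys. Under equal totals 4 endothelial markers rose and 0 fell in WT, and 9 rose and 0 fell in Acot12-/- kidneys. Of 8 podocyte markers, 2 rose and 1 fell in either genotype, and under equal totals 5 rose and 0 fell in WT and 4 rose and 1 fell in Acot12-/- kidneys. Over all tested genes 23.6% rose and 23.9% fell in WT, and 26.6% and 27.2% in Acot12-/- kidneys. At equal totals 56.8% rose and 7.7% fell in WT, and 46.7% and 11.5% in Acot12-/- kidneys. The part of all these markers in the falls of Lrp2, Cubn, Dab2, Vdr and Kl was not tested.

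In the CL kidneys, where the earlier observation on Gc and Cyp27b1 was made, the genotypes are described without a test. Acot12-/- libraries were all above WT libraries for 6 of the 9 genes (Gc, Cyp27b1, Cyp24a1, Cubn, Dab2 and Kl), against 8.6% of all tested genes, a share from which nothing is read because the choice used this contrast. The log2 differences were 2.05 for Cyp24a1, 0.63 for Cubn, 0.63 for Dab2, 0.42 for Kl, 0.45 for Amn, 0.26 for Lrp2 and 0.12 for Vdr. The Amn value was 0.024 without Acot12-/- CL replicate 1 and 1.22 without replicate 2. Without Acot12-/- CL replicate 2, 7 genes did not overlap.

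Sums of cell-type markers in the CL groups stood apart for some lists and overlapped for others. The highest sum of proximal markers in WT CL and the lowest in Acot12-/- CL kidneys both rounded to 10200 FPKM. Summed macrophage markers were 172 to 192 FPKM in WT CL and 58.1 to 129 in Acot12-/- CL kidneys, fibroblast markers 149 to 191 and 51.1 to 117, and endothelial markers 225 to 352 and 80.8 to 122. Injured tubule markers overlapped, at 78.5 to 199 and 80.6 to 184, and podocyte markers did too, at 87.5 to 128 and 105 to 155. The part of these markers in the higher Gc, Cyp27b1 and Cyp24a1 of Acot12-/- CL kidneys was not tested.

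The choice on Gc and Cyp27b1 did not use the obstructed kidneys, although the 9 genes were chosen with earlier results of these data known. In obstructed kidneys 0 of 9 were called between the genotypes, and 0 had an unadjusted p under 0.05 (limma). Of all genes 0.0151% were called and 2.36% had such a p. Differences ran from -0.12 for Gc to 0.53 for Cyp27b1, and the 95% intervals of the 9 genes lay within -1.26 and 1.34. For Vdr the interval was -0.41 to 0.31 and for Dab2 -0.32 to 0.50. The intervals of Gc, Cyp27b1, Cyp24a1 and Amn reached past 1 on the log2 scale, so a difference of that size was not excluded for them.

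The other genes of the pathway were counted by list. Among 14 further tested genes of vitamin D metabolism and signalling, 0 rose and 3 fell in WT kidneys, and 1 rose and 5 fell in Acot12-/- kidneys. Over all tested genes 23.6% rose and 23.9% fell in WT, and 26.6% and 27.2% in Acot12-/- kidneys. Under equal total FPKM the counts were 8 and 0 in WT and 4 and 0 in Acot12-/- kidneys. Of all genes tested at that scaling, 56.8% rose and 7.7% fell in WT, and 46.7% and 11.5% in Acot12-/- kidneys. The same shares stand beside the equal-total counts of the lists that follow, so rises there are not read as a result about a list. Snw1, a coactivator of the vitamin D receptor, fell by 0.67 on the log2 scale in WT (limma adjusted p = 0.00464), and Ncoa1, a nuclear receptor coactivator, by 0.55 (adjusted p = 0.00481), while under equal totals they differed by 0.04 and 0.07. Of the hydroxylases upstream of Cyp27b1, Cyp2r1 was low, at 1.07 to 1.56 FPKM over the group means. Cyp27a1 averaged 10.9 to 21.7 FPKM and fell by 0.65 in Acot12-/- kidneys (adjusted p = 0.0326, and 0.623 under equal totals). That call was also lost without Acot12-/- CL replicate 1 (adjusted p = 0.114) or 3 (0.0851), or UUO replicate 1 (0.0582) or 2 (0.149). Rxra, the partner of the vitamin D receptor, had 24.3 FPKM in WT CL and 20.2 in WT UUO kidneys and did not pass.

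Of 10 further receptor targets of the tubule, 2 rose and 5 fell in WT, and 3 rose and 6 fell in Acot12-/- kidneys. Under equal totals 5 rose and 4 fell, and 4 rose and 5 fell. The calcium binding proteins of the distal tubule fell most. Calb1, calbindin, averaged 495 FPKM in WT CL and 9.79 in WT UUO kidneys (fell by 5.58, limma adjusted p = 1.99e-06), and S100g averaged 14100 and 295 (fell by 5.57, adjusted p = 3.76e-07). Spp1, osteopontin, rose by 3.12 in WT kidneys (adjusted p = 0.000144), and Trpv6, a calcium channel, rose by 1.48 from 0.696 to 3.66 FPKM (adjusted p = 0.000124). Ren1, renin, rose by 3.83 in Acot12-/- kidneys (adjusted p = 4.32e-05). Its Acot12-/- UUO libraries read 71.1, 254 and 42.4 FPKM, against a CL mean of 5.63. Without Acot12-/- UUO replicate 2 their mean went from 122 to 56.7 FPKM and the difference was 3.10 (adjusted p = 1.35e-05).

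Of 19 further genes of klotho, FGF23 and parathyroid hormone signalling, 4 rose and 7 fell in WT and 2 rose and 8 fell in Acot12-/- kidneys. Under equal totals 9 rose and 2 fell, and 8 rose and 5 fell. Fgf23 itself was at most 0.14 FPKM in any library. Its receptor Fgfr1 rose by 0.61 in WT (limma adjusted p = 0.0129), a call lost without WT CL replicate 3 (0.057) or WT UUO replicate 3 (0.0537), and had a difference of 0.32 in Acot12-/- kidneys (adjusted p = 0.142). Fgfr3, another FGF receptor of the list, named after its values were seen, fell by 0.70 in WT (adjusted p = 0.00875) and fell by 0.94 in Acot12-/- kidneys (adjusted p = 0.00116), with both calls lost under equal totals (0.717 and 0.0705). Egr1, a gene switched on by this signalling and by many other stimuli, rose in WT by 2.83 (adjusted p = 4.32e-05). The phosphate transporters of the brush border fell, Slc34a1 by 1.91 (adjusted p = 0.0168, and 0.052 under equal totals) and Slc34a3 by 2.11 (adjusted p = 0.00722), while Slc20a1, a widely expressed phosphate transporter, rose by 0.89 (adjusted p = 0.000657). The Slc34a1 call was lost without WT CL replicate 3 (adjusted p = 0.0619) or WT UUO replicate 1 (0.0638) or 2 (0.0531). Pth1r, the parathyroid hormone receptor, had 248 FPKM in WT CL and 163 in WT UUO kidneys and did not pass.

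The endocytic machinery shared by many cells had smaller differences, by the median, than Lrp2 and Cubn. Of 28 further genes, 2 rose and 4 fell in WT and 2 rose and 9 fell in Acot12-/- kidneys, with median log2 differences of -0.18 and -0.36. Under equal totals 15 rose and 1 fell in WT and 8 rose and 2 fell in Acot12-/- kidneys, where 56.8% and 46.7% of all genes rose. Lrpap1, the chaperone of megalin, fell by 1.72 in WT, from 191 to 58.0 FPKM (limma adjusted p = 0.000326), and by 1.82 in Acot12-/- kidneys (adjusted p = 0.000153). Clcn5, the endosomal chloride transporter whose loss causes tubular proteinuria, fell by 0.58 in WT (adjusted p = 0.0279, but 0.02 under equal totals) and by 1.19 in Acot12-/- kidneys (adjusted p = 0.00029). Its WT call was lost without WT CL replicate 2 (adjusted p = 0.055) or 3 (0.0927) or WT UUO replicate 2 (0.0632) or 3 (0.0989). Ap2b1, a subunit of the coat adaptor AP2, rose by 0.90 in WT (adjusted p = 0.000167).

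Transcripts of megalin and cubilin ligands went both ways. Of 17 further genes, 5 rose and 5 fell in WT and 9 rose and 3 fell in Acot12-/- kidneys. Under equal totals 9 rose and 4 fell, and 10 rose and 3 fell. Lcn2, which encodes the injury marker NGAL, rose by 4.77 in WT from 20.4 to 413 FPKM (limma adjusted p = 0.000423). Tcn2, transcobalamin, fell by 1.94 (adjusted p = 0.0018), and Ttr, which carries retinol binding protein and thyroxine, fell by 4.69 (adjusted p = 0.000488). Gif, intrinsic factor, the cubilin ligand for vitamin B12 in the gut, was listed at 0 in all 12 libraries.

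Of 11 other tested LDL receptor family genes, 2 rose and 2 fell in WT and 2 rose and 6 fell in Acot12-/- kidneys, and under equal totals 6 rose and 1 fell, and 2 rose and 2 fell. Lrp1, a relative of megalin found in many stromal and immune cells, rose by 1.14 in WT (limma adjusted p = 0.000267) and by 2.02 in Acot12-/- kidneys (adjusted p = 3.5e-06). Vldlr fell by 1.14 in WT (adjusted p = 0.000709, and 0.096 under equal totals). Of 3 other mitochondrial cytochrome P450 genes, 0 rose and 1 fell in WT and 2 fell in Acot12-/- kidneys. In none of these lists was a gene called between genotypes in UUO kidneys or in the interaction.

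**Figure D4:**
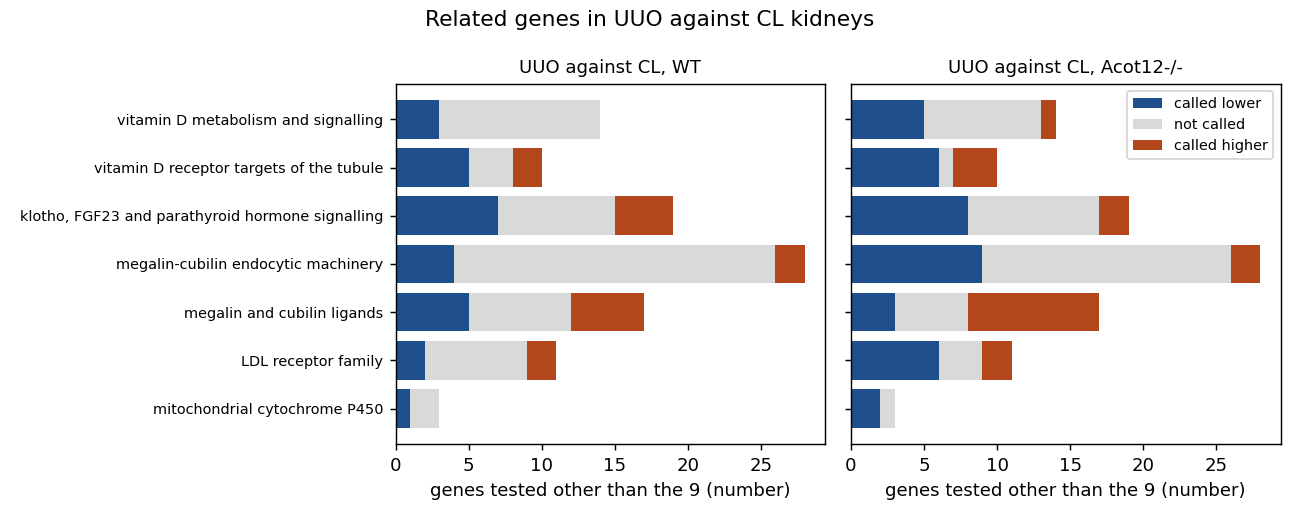
Number of tested genes other than the 9 that were called lower (blue), not called (grey) or called higher (red) in UUO against CL kidneys of WT (left) and Acot12-/- mice (right), for 7 related gene lists. Of the 28 endocytic machinery genes 4 were called lower in WT, and of the 10 tubule targets of the vitamin D receptor 5 were.

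The genes whose 12 library values were most like each of the 9 were found by the root mean square difference of centred log2(FPKM + 1) among 13242 other genes. For Lrp2 they were Abhd3 (0.144), Gas2 (0.171) and Lypla1 (0.172), against 1.27 for the variation of Lrp2 itself. For Kl they were 4931406C07Rik (0.173), Dnajc12 (0.188) and Aass (0.195), against 1.51. Cubn was closest to Bco2 (0.108), Abcd3 (0.119), which encodes a peroxisomal membrane transporter, and Tmem174 (0.128). Dab2 was closest to Car2 (0.124), Vdr to Plekha8 (0.0869) and Amn to Epn1 (0.197).

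No gene was comparably close to the vitamin D enzymes and Gc. Cyp27b1 had Acsf2 (0.527), Cpn1 (0.542) and Osr2 (0.559) as nearest, against its own variation of 0.993, and Cyp24a1 had Lgals3bp (0.621), Nuf2 (0.626) and Osr2 (0.627), against 0.937. Gc had Cfi (0.908), which encodes complement factor I, then Spp1 (0.914) and Steap1 (0.969), against 1.85. Cfi averaged 5.28 FPKM in WT CL, 15.0 in Acot12-/- CL, 27.6 in WT UUO and 33.9 in Acot12-/- UUO kidneys, the order of Gc apart from the UUO groups. The libraries share their groups and their scaling, so these values are a description.

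The 9 genes lie on chromosomes 2, 5, 10, 12 and 15 of GRCm38 in the GENCODE annotation. Lrp2 has 79 exons in its longest principal transcript of 15460 bases, and Cubn has 67 in 11262 bases. Gc spans chr5:89417522-89457898 on the minus strand and Cyp27b1 chr10:127048250-127053006 on the plus strand. Cubn and Dab2 also overlap genes on the opposite strand, the processed transcript Gm13270 and the processed pseudogene Gm18888, which share 368 and 211 exon bases with them, so that unstranded counting could not separate the pairs.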

How the data were processed

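Total RNA from kidney cortex was made into strand-specific libraries and sequenced on an Illumina instrument, and a sequencing service trimmed, mapped (mm10, per the submitters' processing notes, which also name edgeR) and normalized the reads. The authors deposited FPKM for 23183 gene symbols in each of 12 libraries. Aligner, annotation and use of strand in counting are not given in the sources used here. Depth was estimated from the steps between low FPKM values, which gives the divisor of the FPKM and not the number of fragments sequenced.

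limma (3.58.1, R 4.3.3) was fitted to log2(FPKM + 1) over 4 groups of 3 libraries with a variance trend and Benjamini-Hochberg adjustment over 13243 genes, called at adjusted p of 0.05. Genes needed at least 1 FPKM in at least 3 libraries, and 58 genes at 0 beside a value of at least 10 FPKM in their group were left out. The fit was tested on simulated data. The 9 genes and all lists were chosen with earlier results of these data known. Contrasts used by the choice were not tested on their own, but the interaction tests of the genes it did not name contain the CL genotype difference.

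Named genes were the 9, known partners of the pathway, at most 2 called genes with the largest rise and 2 with the largest fall per list and comparison, and the 3 most alike genes, and 1 of the genes so named is not reported here. Alternatives were another pseudocount, no filter, kept dropouts, 2 scalings, no variance trend, separate fits, a replicate block, a fold minimum and each library left out. Residuals of same-numbered CL and UUO libraries correlated at 0.13 to 0.36 in all 6 pairs, and those of differently numbered ones at -0.36 to 0.14. The ranges met in WT, where CL replicate 2 with UUO replicate 1 gave 0.14. The numbers were taken to pair kidneys in the block fit, while the main fit and its p-values did not use pairing. The labels do not say that libraries of a group came from separate animals, and p-values measure the spread between these libraries.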

Additional observations from a re-analysis of the deposited data

How the results depend on the processing

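The counts of called genes held within 1.5 times under the other alternatives run, with these exceptions in WT kidneys, where the genes called lower numbered 3 under equal total FPKM and 3 with a change of at least 1 on the log2 scale required, against 5, and where the genes called higher ranged from 0 to 1 when each library was left out. Scaling every library to the same total FPKM turned the sign of Amn (0.42) and Dab2 (0.028) in WT UUO against CL and of Cyp24a1 (0.16) in Acot12-/- UUO against CL. Between genotypes in UUO it turned Lrp2 (-0.021), Cubn (-0.0036), Dab2 (-0.082) and Kl (-0.15), where all genes shifted by -0.15. The cause was not tested.

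Leaving out each library in turn turned small differences, none of them called. Cyp24a1 in Acot12-/- UUO against CL ranged from -0.60 to 0.018. Between genotypes in UUO, Gc ranged from -0.35 to 0.094, Vdr from -0.18 to 0.026, Lrp2 from -0.12 to 0.47, Cubn from -0.069 to 0.35, Dab2 from -0.031 to 0.18 and Kl from -0.31 to 0.40. In the interaction Lrp2 ranged from -0.37 to 0.22 and Amn from -1.03 to 0.16.

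With the replicate number as a block the genes called were again 1 higher and 5 lower in WT, 0 and 5 in Acot12-/- kidneys, and 0 between genotypes in UUO and in the interaction, and it changed no call of the 9. Over all genes it raised the interaction calls from 14 to 203. Applying equal totals to the related lists, and leaving out libraries for their named genes, was decided after the data were seen.

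Few fragments and 3 libraries a group limit Cyp27b1 and Gc in WT CL kidneys most, where replicate 1 held about 38 and 35 fragments. The estimated divisor was smaller in CL than in UUO libraries, while total FPKM was larger, at 799670 to 977981 against 491078 to 686425. Median-ratio size factors were 0.977 to 1.02, so the values may already be scaled between libraries. Whether CL libraries were sequenced less deeply is not known. FPKM have no spike-in, so levels are relative to the rest of each library, and sets of abundant transcripts that differ between kidneys move all other values.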
